A study of Ovis aries with 22 samples.

Results

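Sinus tissue of the pulmonary autograft was compared with native aortic sinus tissue in sheep (Ovis aries), as the difference between a transplanted wall and the tissue native to the position it was moved to. In the Ross procedure the pulmonary root is placed in the aortic position, where it then carries systemic pressure. The libraries were chosen by their tissue label: 3 autograft sinus libraries, from 3 sheep sampled 6 months after Ross surgery, and 4 native aortic sinus libraries, 7 of the 11 libraries of the series. Each library was sequenced in 2 runs, which gives 14 of the 22 sample entries, and the runs were summed here. The other 4 libraries, of native pulmonary sinus, took part in the fit and are given beside a result where they help to place it. The study text places the native tissue in non-operated sheep, and 3 of the 4 aortic libraries carry the treatment label Control. Aortic replicate 1 carries the label Ross surgery instead, while the pulmonary library of the same animal is labelled Control. The labels give no age, sex or breed, and no group of sham-operated sheep was analysed here, so that surgery and position cannot be told apart in this comparison. Aortic and pulmonary libraries of the same number come from 1 animal, and the native pulmonary values show the tissue from which an autograft is taken, in other animals.

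The wall of an arterial sinus is built mainly by smooth muscle cells, which contract through smooth muscle actin and myosin and lay down collagen and elastin. Myocardin, a coactivator of serum response factor, keeps the contractile genes of these cells on. Smooth muscle cells that leave the contractile state make more collagen, proteoglycans and proteases, and fibroblasts, endothelial cells, nerves and immune cells of the wall add their own transcripts. Whole tissue was sequenced, so fewer cells of a type and less RNA per cell cannot be told apart in any value below.

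The 7 libraries held 17380599 to 19935980 counts assigned to genes, in which 17378 to 17940 genes had at least 1 count. Levels are given as CPM (counts scaled to a common library size) on library sizes scaled by the trimmed mean of M-values, and values follow the order of the replicates, 1 to 3 for autografts and 1 to 4 for aortic sinuses. Smooth muscle markers were abundant in all 7 libraries. MYH11, the smooth muscle myosin heavy chain, was at 5184 to 10329 CPM in the autografts and 12356 to 19781 CPM in the aortic sinuses. ACTA2, smooth muscle actin, was at 7666 to 15660.0 CPM and 15809 to 22842 CPM. Its mean was 18858 CPM in aortic and 18847 CPM in pulmonary sinuses. Such markers show smooth muscle but cannot tell one sinus from another, so they do not check the tissue labels. On the first principal component of the 7 libraries (34.5% of variance) the autografts lay at 53.2, 53.4 and 21.9 and the aortic sinuses between -53.5 and -21.0. On the second (21.9%) autograft replicate 1 stood apart at -62.6, against 37.7 and 31.4 for the other autografts and -12.7 to 19.6 for the aortic sinuses. Replicates are separate libraries from different animals by their labels.

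Of 14979 genes tested, 356 (2.38%) differed between autograft and aortic sinus. The term called is used below for an adjusted p (edgeR's quasi-likelihood test, Benjamini-Hochberg) under 0.05. Expression rose in the autograft for 142 genes (0.948% of those tested) and fell for 214 (1.43%). The called rises were the larger: 51 of the 142 had a log2 fold change of at least 2 and 93 of at least 1, with a median of 1.40. Among the 214 falls, 17 had a log2 fold change of -2 or below and 108 of -1 or below, with a median of -1.01. Genes that fell were the more abundant, with a median of 47.1 for the mean CPM over the 7 libraries. For genes that rose it was 19.6 CPM, near the 19.4 CPM of all tested genes. In the aortic sinuses alone the medians were 59.6 CPM for falls, 10.7 CPM for rises and 18.9 CPM for all. There the direction of a call itself favours high values for falls and low values for rises. At an unadjusted p under 0.05, 1728 genes were higher and 1718 lower, and the median log2 fold change over all tested genes was 0.00. All autografts lay on one side of all aortic libraries for 355 of the 356, and for 3080 (20.6%) of the genes tested.

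The number of called genes rested on single libraries. It was 170, 25 and 210 without autograft replicates 1, 2 and 3, and 61, 111, 30 and 70 without aortic replicates 1 to 4. Without pulmonary replicates 1 to 4, which carry no part of the difference but share the estimate of spread, it was 576, 337, 179 and 228. Without both autograft replicate 1, the library that stood apart, and aortic replicate 1, the library with the label Ross surgery, it was 68, of which 47 were among the 356. No called gene changed direction in any of the 27 alternative analyses.

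**Figure D1:**
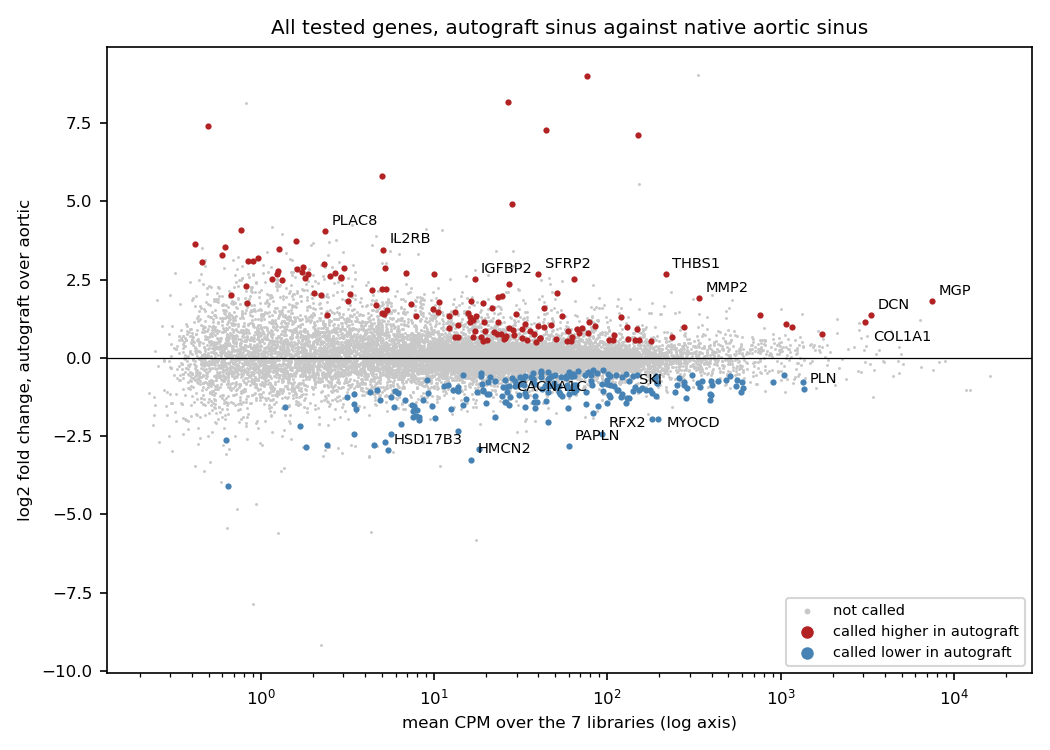
Each point is 1 of the 14979 tested genes, with its mean CPM over the 7 libraries on a log axis and its log2 fold change, autograft over aortic, on the vertical axis. Red and blue points are the 142 genes called higher and the 214 called lower in the autograft, and grey points are genes that were not called.

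Of the 356 genes, 17 were called whichever of the 7 autograft and aortic libraries was left out, 6 higher and 11 lower, and 16 of these were called in all 27 alternatives. They are described first, and were picked for this property after their values were seen. Of the 17, 2 of the lower genes carry only LOC numbers in the table and are not described. MYOCD, which encodes myocardin, was at 96.9, 72.3 and 55.4 CPM in autografts and 298, 339, 261 and 256 CPM in aortic sinuses. Every autograft was below every aortic library (log2 fold change -1.94 ± 0.24, adjusted p = 0.00653). The pulmonary sinuses were at 278 ± 71 CPM, with a log2 difference of 0.05 ± 0.21 (SE), aortic minus pulmonary. SKI, a repressor of SMAD-dependent transcription, was at 91.8, 91.1 and 78.5 CPM in autografts and 169, 188, 180.1 and 185 CPM in aortic sinuses and had, with SMIM3, the smallest adjusted p of all genes (log2 fold change -1.05 ± 0.10, adjusted p = 0.00368). The spread within each group was small beside the gap between the groups. RFX2, a transcription factor of ciliary genes, was at 35.7, 24.6 and 20.5 CPM in autografts and 149, 95.7, 135 and 196 CPM in aortic sinuses (log2 fold change -2.42 ± 0.28, adjusted p = 0.00516). TPPP, a tubulin polymerisation promoting protein, was at 3.66, 4.19 and 4.6 CPM in autografts and 13.6, 21.9, 24.4 and 24.2 CPM in aortic sinuses (log2 fold change -2.34 ± 0.27, adjusted p = 0.00516). CCDC33, a coiled-coil protein gene, was at 2.36, 4.83 and 4.26 CPM in autografts and 16.4, 49.1, 27 and 22.7 CPM in aortic sinuses (log2 fold change -2.91 ± 0.38, adjusted p = 0.0088). The aortic libraries spread widely for this gene, and the lowest of them was still above each autograft.

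Further falls that held without any single library were those of COL28A1, a collagen chain (175 to 239 CPM in the autografts, 484 to 617 CPM in the aortic sinuses, log2 fold change -1.33 ± 0.14, adjusted p = 0.00405), and SYNE1, a nuclear envelope protein that links the nucleus to the cytoskeleton (134 to 166 CPM and 277 to 344 CPM, log2 fold change -1.08 ± 0.12, adjusted p = 0.00516). PRKCD, protein kinase C delta, had 51.1 to 65.4 CPM and 122 to 149 CPM (log2 fold change -1.23 ± 0.14, adjusted p = 0.00516). CHD5, a chromatin remodeller, was at 15.9 to 27.1 CPM and 49.9 to 71.7 CPM (log2 fold change -1.38 ± 0.20, adjusted p = 0.0153). Each of these falls was more than the spread of either group. Among the rises, MMP2, the gelatinase that degrades denatured collagen and basement membrane, was at 604, 682 and 464 CPM in autografts and 195, 155, 126 and 149 CPM in aortic sinuses (log2 fold change 1.90 ± 0.26, adjusted p = 0.0109). RHOU, an atypical small GTPase, was at 92, 89.1 and 93.4 CPM in autografts and 27.3, 26.2, 13.5 and 19.3 CPM in aortic sinuses (log2 fold change 2.08 ± 0.23, adjusted p = 0.00516), with almost no spread between the autografts. SMIM3, a small membrane protein gene, was at 59.3, 79.2 and 72.7 CPM in autografts and 22, 25.6, 21.9 and 22.9 CPM in aortic sinuses (log2 fold change 1.61 ± 0.15, adjusted p = 0.00368). TIPARP, a mono-ADP-ribosyltransferase and target of the aryl hydrocarbon receptor, was at 114, 94.1 and 156 CPM in autografts and 22.1, 26.4, 11.1 and 25.6 CPM in aortic sinuses (log2 fold change 2.51 ± 0.35, adjusted p = 0.0127), and was called in 26 of the 27 alternatives. The cytotoxic lymphocyte genes IL2RB and CTSW complete the set and are given with the lymphocyte genes.

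**Figure D2:**
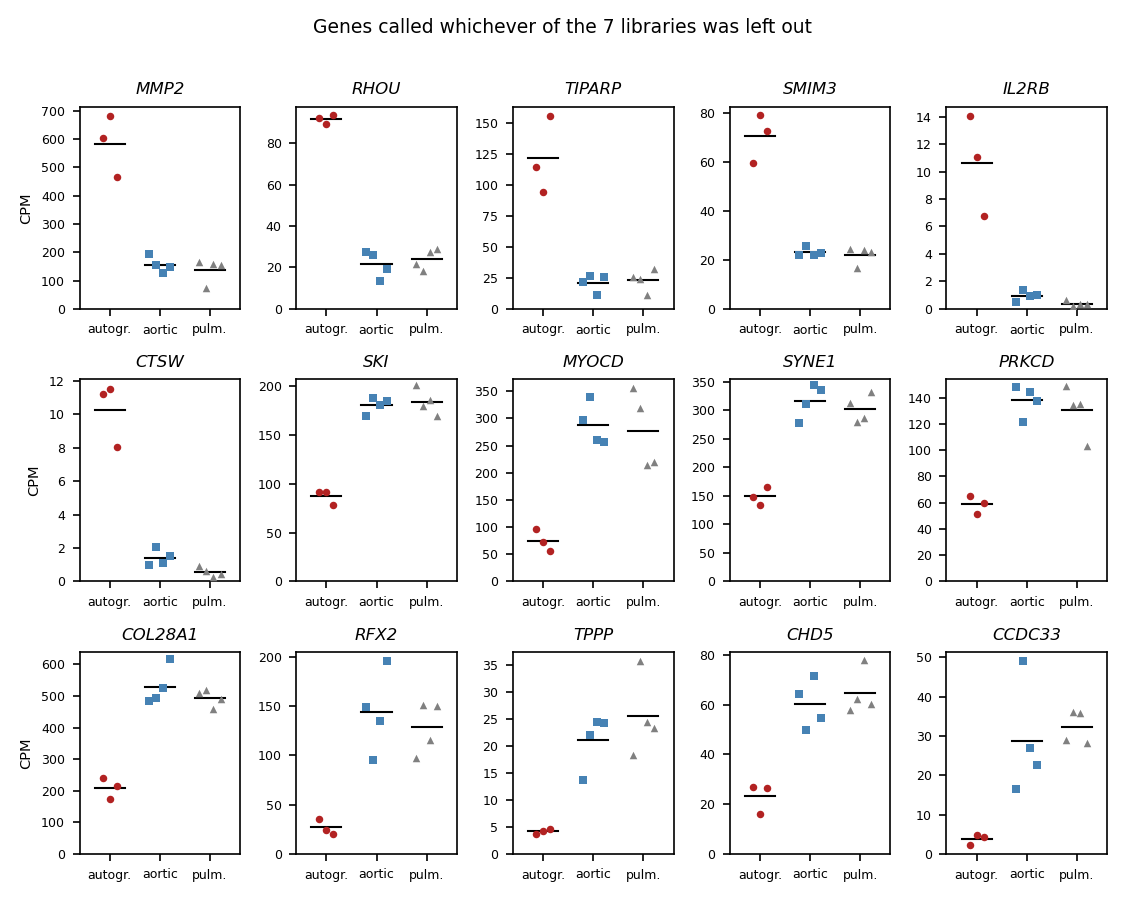
CPM of 15 genes in each library, autografts as circles, aortic sinuses as squares and pulmonary sinuses as triangles, with the group mean as a line and every axis starting at 0. In each panel the 3 autografts lie on one side of all 4 aortic libraries, and the pulmonary libraries lie near the aortic ones.

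The largest rises by fold, among called genes with a symbol, no overlap and at least 5 CPM in the higher group, included genes of lymphocytes, matrix and growth factor binding. PLAC8, a small cysteine-rich protein gene of myeloid and lymphoid cells, was at 10.3, 1.57 and 3.41 CPM in autografts and 0.152, 0.35, 0.0574 and 0.644 CPM in aortic sinuses (log2 fold change 4.04 ± 0.90, adjusted p = 0.0444). Most of its mean came from autograft replicate 1. CYTIP, a cytohesin-binding protein of leukocytes, was at 4.39, 4.19 and 7.1 CPM in autografts and 1.01, 0.500, 0.459 and 1.18 CPM in aortic sinuses (log2 fold change 2.72 ± 0.45, adjusted p = 0.025). EYA1, a transcriptional coactivator and phosphatase of organ development, was at 4.05, 8.27 and 4.37 CPM in autografts and 1.32, 1, 0.861 and 0.591 CPM in aortic sinuses (log2 fold change 2.55 ± 0.40, adjusted p = 0.0197), with the highest value in autograft replicate 2. The other 9 of the 12 largest were IL2RB, CTSW and NKG7, described with the lymphocyte genes, PHEX, ADAM12, THBS1, SFRP2 and IGFBP2, described with matrix and signalling, and TIPARP. These 12 calls ended for 5, 9 and 3 of 12 without autograft replicates 1, 2 and 3. For 8, 7, 9 and 6 they ended without aortic replicates 1 to 4, and for 0, 2, 3 and 2 without pulmonary replicates 1 to 4 (adjusted p at most 0.124).

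The largest falls were of genes that the native wall expressed at low to moderate levels. HMCN2, a hemicentin of the extracellular matrix, was at 1.69, 3.38 and 3.35 CPM in autografts and 6.6, 44.4, 35.8 and 19.9 CPM in aortic sinuses (log2 fold change -3.25 ± 0.68, adjusted p = 0.0376). Aortic replicate 1 was the lowest of its group. HSD17B3, a hydroxysteroid dehydrogenase that makes testosterone, was at 1.01, 0.408 and 1.93 CPM in autografts and 10.9, 4.85, 6.54 and 12.2 CPM in aortic sinuses (log2 fold change -2.94 ± 0.55, adjusted p = 0.031). For both, each autograft was below each aortic library. MAPK4, an atypical MAP kinase, was at 1.4 to 2.87 CPM and 6.66 to 11.2 CPM (log2 fold change -2.10 ± 0.30, adjusted p = 0.0153). CCDC13, a centriolar satellite gene, was at 0.394 to 1.82 CPM and 5.12 to 5.45 CPM (log2 fold change -2.44 ± 0.46, adjusted p = 0.0316). KBTBD12 was at 1.28 to 5.17 CPM and 8.45 to 13.8 CPM (log2 fold change -1.98 ± 0.43, adjusted p = 0.0412). Autografts and aortic libraries did not overlap for any of the 3. PAPLN, ACSBG2, ATP2A3, RFX2, TPPP and CCDC33 were also among the 12 largest falls. The 12 calls ended for 5, 9 and 2 of 12 without autograft replicates 1, 2 and 3. For 4, 4, 6 and 5 they ended without aortic replicates 1 to 4, and for 0, 1, 2 and 3 without pulmonary replicates 1 to 4 (adjusted p at most 0.108).

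In the gene lists that follow, counts of called members stand against the 0.948% higher and 1.43% lower among all tested genes. A list with 1 or 2 calls is described by those genes, not as a group. The lists were chosen with earlier results of these data known, so a share above that of all genes is no independent evidence. Counts of members at an unadjusted p under 0.05 stand against 1728 higher and 1718 lower of all 14979 tested genes. Those by DESeq2 stand against 760 higher and 702 lower of 20298 genes, and those by limma-voom against 188 higher and 196 lower of 14979. A gene passes the filter on low counts if it is high enough in the autografts alone, which sets a limit to the lists of sparse transcripts.

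Part of the contractile smooth muscle genes fell in the autograft. Of 26 tested members of this list, 5 were called lower, against the background of 1.43%, 25 had a log2 fold change below 0, and the list's median was -0.57. At an unadjusted p under 0.05, 15 were lower, and DESeq2 called 10 lower and limma-voom 6. Besides MYOCD, the called members were phospholamban and 3 genes of the actin cytoskeleton and its anchorage. PLN, phospholamban, the inhibitor of the calcium pump of the sarcoplasmic reticulum, was at 733, 819.8 and 1038 CPM in autografts and 1753, 1708, 1802 and 1674 CPM in aortic sinuses (log2 fold change -1.01 ± 0.17, adjusted p = 0.0261). TNS1, a tensin of focal adhesions, was at 267, 187 and 242 CPM in autografts and 468, 365, 712 and 554 CPM in aortic sinuses (log2 fold change -1.18 ± 0.24, adjusted p = 0.0372). SYNPO2, an actin-binding Z-disc protein gene, had 565 to 733 CPM and 1019 to 1310.1 CPM (log2 fold change -0.78 ± 0.16, adjusted p = 0.0365). ITGA8, an integrin chain of smooth muscle, was at 722 to 922 CPM and 1188 to 1239 CPM (log2 fold change -0.55 ± 0.11, adjusted p = 0.0372). The 4 aortic libraries nearly coincided for PLN and ITGA8. Of the filament genes in the list, MYH11 and ACTA2 did not pass the test. MYH11 lies outside the rule for named genes and was added after its values were seen. It was at 5184, 6731 and 10329 CPM in autografts and 15431, 12686, 19781 and 12356 CPM in aortic sinuses (log2 fold change -1.02 ± 0.28, adjusted p = 0.0782). ACTA2, the most abundant member, was at 7666, 14403 and 15660.0 CPM in autografts and 22842, 16101, 20679 and 15809 CPM in aortic sinuses (log2 fold change -0.58 ± 0.29, adjusted p = 0.25). The lowest value of both was that of autograft replicate 1. The 5 calls ended for 4, 4 and 1 of 5 without autograft replicates 1, 2 and 3. For 4, 2, 4 and 4 they ended without aortic replicates 1 to 4, and for 0, 0, 3 and 2 without pulmonary replicates 1 to 4 (adjusted p at most 0.122).

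Genes of calcium and potassium channels and pumps had 5 falls and 1 rise among 27 tested, against 1.43% and 0.948% of all genes, with a median of -0.39. CACNA1C, the pore of the L-type calcium channel, was at 16.3, 14.6 and 15.1 CPM in autografts and 31.2, 37.4, 48.2 and 28.7 CPM in aortic sinuses (log2 fold change -1.25 ± 0.19, adjusted p = 0.017). Its accessory subunit CACNB2 was at 4.33 to 6.81 CPM and 10.7 to 14.9 CPM (log2 fold change -1.13 ± 0.20, adjusted p = 0.0265). Neither gene overlapped between the groups. ATP2A3, a calcium pump of the endoplasmic reticulum, was at 17.2, 14.3 and 17.4 CPM in autografts and 46.4, 90.1, 90.6 and 41.9 CPM in aortic sinuses (log2 fold change -2.05 ± 0.33, adjusted p = 0.0241), with the aortic libraries split into a lower and a higher pair. ATP2A2, the calcium pump that phospholamban inhibits, was at 331, 344 and 392 CPM in autografts and 660.2, 500.1, 629 and 532 CPM in aortic sinuses (log2 fold change -0.71 ± 0.14, adjusted p = 0.0338). The rise was of ITPR2, an inositol trisphosphate receptor that releases stored calcium, at 44.2, 42.1 and 29.5 CPM in autografts and 19.4, 23.3, 19.5 and 21.5 CPM in aortic sinuses (log2 fold change 0.88 ± 0.19, adjusted p = 0.0376). It lies outside the rule for named genes and was added after its values were seen. The 6 calls ended for 4, 6 and 0 of 6 without autograft replicates 1, 2 and 3. For 3, 3, 5 and 3 they ended without aortic replicates 1 to 4, and for 0, 0, 1 and 1 without pulmonary replicates 1 to 4 (adjusted p at most 0.113).

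Among 36 tested vasoactive receptors and enzymes, 3 fell, against 1.43% of all genes, and the median was 0.02. PTGIS, prostacyclin synthase, was at 837, 1022 and 986 CPM in autografts and 1888, 1559, 1749 and 1346 CPM in aortic sinuses (log2 fold change -0.79 ± 0.17, adjusted p = 0.042). PTGIR, the prostacyclin receptor, was at 5.06, 3.32 and 2.61 CPM in autografts and 8.07, 12.1, 12.5 and 10.2 CPM in aortic sinuses (log2 fold change -1.54 ± 0.28, adjusted p = 0.0281). Both were lower in each autograft than in any aortic library. ADRA1B, the alpha-1B adrenergic receptor, was at 13.1, 7.57 and 9.43 CPM in autografts and 18.4, 24, 29.7 and 37.2 CPM in aortic sinuses (log2 fold change -1.44 ± 0.29, adjusted p = 0.0347). These 3 calls ended for 1, 3 and 3 of 3 without autograft replicates 1, 2 and 3. For 1, 3, 3 and 3 they ended without aortic replicates 1 to 4, and for 0, 0, 2 and 1 without pulmonary replicates 1 to 4 (adjusted p at most 0.119).

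A chain of the main interstitial collagen was called higher in the autograft, while COL1A2, the gene of its partner chain, was not called. Of 10 fibrillar collagen genes tested, 1 was called, COL1A1, which encodes the alpha-1 chain of collagen I. It was at 5057, 4537 and 3711 CPM in autografts and 2083, 2548, 1856 and 1596 CPM in aortic sinuses (log2 fold change 1.13 ± 0.21, adjusted p = 0.0281), higher in each autograft than in any aortic library. COL3A1, the chain of collagen III and the most abundant member, was at 13597, 7739 and 6772 CPM in autografts and 4200.1, 4379, 3786 and 3993 CPM in aortic sinuses and did not pass the test (log2 fold change 1.20 ± 0.30, adjusted p = 0.0642). At an unadjusted p under 0.05, 6 of the 10 were higher and 1 lower, and the list's median was 0.72. Collagen processing and crosslinking showed 1 rise and 1 fall among 26 tested genes (median 0.12). P4HA3, a collagen prolyl hydroxylase, was at 29.3, 39.4 and 14 CPM in autografts and 9.69, 6.65, 6.26 and 8.86 CPM in aortic sinuses (log2 fold change 1.81 ± 0.33, adjusted p = 0.0281). LOXL3, a lysyl oxidase, was at 85.8, 104 and 90.9 CPM in autografts and 113, 155, 161 and 140.1 CPM in aortic sinuses (log2 fold change -0.60 ± 0.14, adjusted p = 0.0472). The autograft values of P4HA3 differed among themselves, with replicate 3 the lowest. These 3 calls ended for 3, 3 and 1 of 3 without autograft replicates 1, 2 and 3. For 2, 2, 3 and 3 they ended without aortic replicates 1 to 4, and for 0, 1, 1 and 1 without pulmonary replicates 1 to 4 (adjusted p at most 0.13).

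Elastic fibre genes showed no called change. By edgeR 0 of 19 were called, with 1 higher and 0 lower at an unadjusted p under 0.05, and DESeq2 and limma-voom also called 0. ELN, elastin, was at 2062, 1919.5 and 1708 CPM in autografts and 2572, 3881, 4692 and 6991 CPM in aortic sinuses, without overlap but with a wide spread among the aortic libraries (log2 fold change -1.26 ± 0.58, adjusted p = 0.221). FBLN1, a fibulin, was at 1052, 1193 and 1908 CPM in autografts and 676, 898, 685 and 1061 CPM in aortic sinuses (log2 fold change 0.74 ± 0.31, adjusted p = 0.191), and its groups overlapped. The median of the list was 0.02.

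Proteoglycan and matricellular genes divided into 3 rises and 1 fall among 32 tested, with a median of 0.33. DCN, decorin, a small proteoglycan that binds collagen fibrils, was at 5853, 4085 and 5364 CPM in autografts and 2509.7, 1952, 1763 and 1749 CPM in aortic sinuses (log2 fold change 1.36 ± 0.31, adjusted p = 0.0472). FMOD, fibromodulin, of the same family, was at 2479, 1728 and 2616 CPM in autografts and 1495, 1213, 1374 and 1245 CPM in aortic sinuses (log2 fold change 0.77 ± 0.16, adjusted p = 0.0347). For both, each autograft was above each aortic library. THBS1, thrombospondin-1, a matricellular protein that can activate latent TGF-beta, was at 679, 353 and 229.8 CPM in autografts and 50.2, 55.4, 39 and 118 CPM in aortic sinuses (log2 fold change 2.68 ± 0.57, adjusted p = 0.0387). Its autograft values differed by replicate, with replicate 1 the highest. PAPLN, papilin, a matrix protein related to the ADAMTS proteases, was at 10.6, 10.3 and 19.3 CPM in autografts and 67.2, 99.97, 146 and 66.4 CPM in aortic sinuses (log2 fold change -2.82 ± 0.38, adjusted p = 0.0104), one of the larger falls among all genes. The 4 calls ended for 3, 3 and 2 of 4 without autograft replicates 1, 2 and 3. For 3, 3, 3 and 3 they ended without aortic replicates 1 to 4, and for 0, 0, 2 and 2 without pulmonary replicates 1 to 4 (adjusted p at most 0.133).

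MGP, matrix Gla protein, an inhibitor of mineralisation made by smooth muscle cells and chondrocytes, was the most abundant of all called genes. It was at 14850.0, 11606 and 11619 CPM in autografts and 4271, 2179, 2798 and 5245 CPM in aortic sinuses (log2 fold change 1.81 ± 0.34, adjusted p = 0.0311), and every autograft was above every aortic library. Modulated smooth muscle genes, a list that holds MGP, DCN and IGFBP2, had 3 rises among 15 tested and a median of 1.10. The list of chondrogenic, osteogenic and calcification genes (26 tested, median 0.78) had 2 rises and 1 fall. PHEX, a membrane endopeptidase of phosphate handling in bone, was at 3.77, 8.15 and 6.13 CPM in autografts and 1.42, 0.800, 0.23 and 0.806 CPM in aortic sinuses (log2 fold change 2.87 ± 0.56, adjusted p = 0.0341). SLC20A2, a sodium-phosphate cotransporter, was at 29.3, 43.3 and 31.7 CPM in autografts and 73.1, 57.6, 60.7 and 49.5 CPM in aortic sinuses (log2 fold change -0.79 ± 0.17, adjusted p = 0.0387). Abundant called genes outside these lists were CST3, the protease inhibitor cystatin C (1309.6 to 2209 CPM and 748 to 869 CPM, log2 fold change 0.98 ± 0.20, adjusted p = 0.0372), and SEPP1, selenoprotein P (1193 to 1732 CPM and 548 to 829 CPM, log2 fold change 1.07 ± 0.22, adjusted p = 0.0376). For the 8 most abundant called genes, MGP, DCN, COL1A1, CST3, FMOD, PLN, PTGIS and SEPP1, calls ended for 8, 7 and 3 of 8 without autograft replicates 1, 2 and 3. For 8, 6, 8 and 7 they ended without aortic replicates 1 to 4, and for 0, 0, 4 and 3 without pulmonary replicates 1 to 4 (adjusted p at most 0.133).

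**Figure D3:**
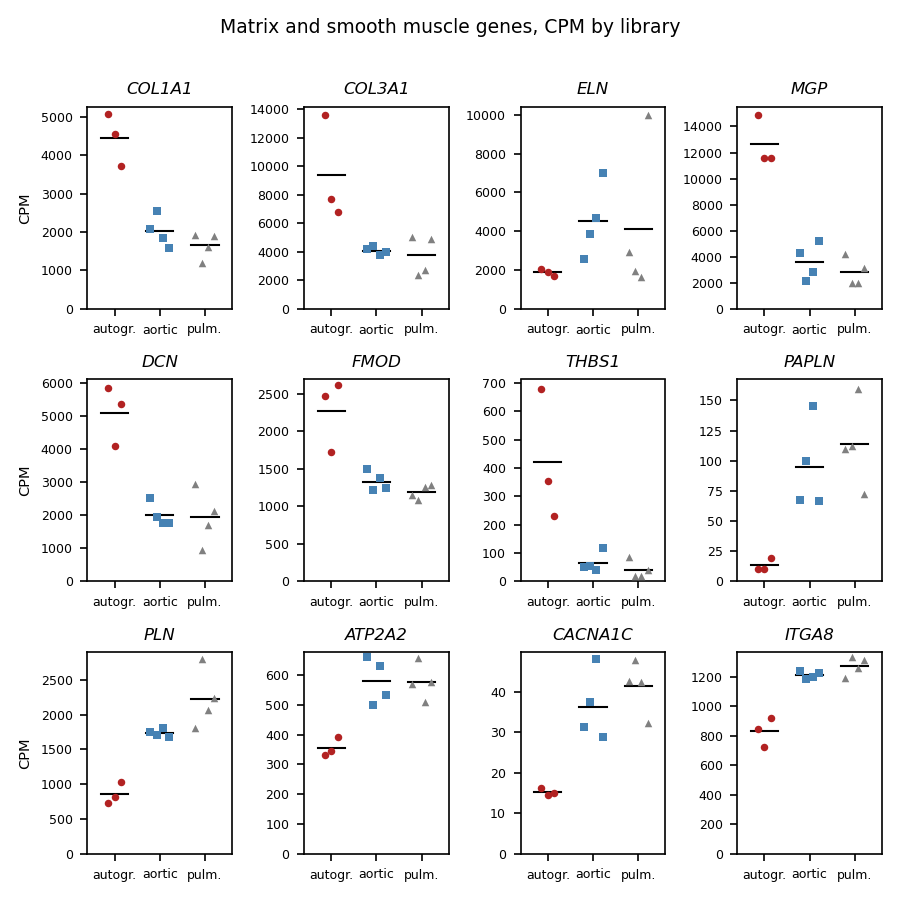
CPM of 12 matrix and smooth muscle genes by library, with symbols, lines and axes as in the plot of the genes that held without any single library. Autografts lie above the aortic libraries for COL1A1, COL3A1, MGP, DCN, FMOD and THBS1 and below them for ELN, PAPLN, PLN, ATP2A2, CACNA1C and ITGA8, of which COL3A1 and ELN were not called.

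Matrix proteases and inhibitors had 2 rises and 1 fall among 28 tested, with a median of 0.50. MMP2 was described above. ADAM12, a membrane metalloprotease of activated mesenchymal cells, was at 30.0, 18 and 10.2 CPM in autografts and 2.23, 3.8, 2.3 and 3.71 CPM in aortic sinuses (log2 fold change 2.69 ± 0.51, adjusted p = 0.032). MMP11, stromelysin-3, was at 10.9, 10.9 and 19.9 CPM in autografts and 36.7, 40.6, 21.6 and 31.7 CPM in aortic sinuses (log2 fold change -1.23 ± 0.28, adjusted p = 0.0497). The call of MMP11 was close to the threshold. The 3 calls, that of MMP2 included, ended for 2, 2 and 0 of 3 without autograft replicates 1, 2 and 3. For 2, 2, 2 and 2 they ended without aortic replicates 1 to 4, and for 0, 0, 1 and 1 without pulmonary replicates 1 to 4 (adjusted p at most 0.141).

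Basement membrane genes had 1 rise and 1 fall among 20 tested, with a median of -0.19, and integrin and focal adhesion genes 1 rise and 2 falls among 31, with a median of -0.21. The called collagen IV chains moved in opposite directions. COL4A3 was at 6.92, 4.72 and 11.2 CPM in autografts and 2.38, 2.6, 2.24 and 2.2 CPM in aortic sinuses (log2 fold change 1.69 ± 0.29, adjusted p = 0.0261). COL4A5 was at 82.9, 99.4 and 152 CPM in autografts and 257, 167, 245 and 239 CPM in aortic sinuses (log2 fold change -1.03 ± 0.22, adjusted p = 0.0402). Neither chain overlapped between the groups. ITGA3, a laminin-binding integrin chain, was at 34.1, 23.9 and 35.3 CPM in autografts and 94.9, 57.4, 75.6 and 61.2 CPM in aortic sinuses (log2 fold change -1.22 ± 0.21, adjusted p = 0.0261). ITGA2, a collagen-binding chain, was at 5.29, 11.8 and 11.4 CPM in autografts and 1.17, 1.9, 2.18 and 3.06 CPM in aortic sinuses (log2 fold change 2.19 ± 0.45, adjusted p = 0.0365). Autografts were below the aortic libraries for ITGA3 and above them for ITGA2, and ITGA8 was described with the contractile genes. The 5 calls ended for 2, 4 and 2 of 5 without autograft replicates 1, 2 and 3. For 5, 2, 5 and 4 they ended without aortic replicates 1 to 4, and for 0, 0, 3 and 2 without pulmonary replicates 1 to 4 (adjusted p at most 0.124).

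TGF-beta and BMP genes had 1 call among 42 tested, the fall of SKI, the same share as the 2.38% of all genes, and a median of 0.22. TGFB1, the ligand, was at 32.2, 37.1 and 31.2 CPM in autografts and 51.6, 50.2, 45.3 and 42 CPM in aortic sinuses and did not pass the test (log2 fold change -0.50 ± 0.13, adjusted p = 0.0636). Wnt genes had 1 rise and 1 fall among 32, with a median of 0.20. SFRP2, a secreted Wnt modulator made by fibroblasts, was at 85.8, 90.5 and 55.3 CPM in autografts and 12.9, 6.75, 19.9 and 8.75 CPM in aortic sinuses (log2 fold change 2.68 ± 0.61, adjusted p = 0.0478). LRP5, a Wnt coreceptor, was at 53.5, 63 and 78.5 CPM in autografts and 133, 93.8, 124 and 109 CPM in aortic sinuses (log2 fold change -0.83 ± 0.18, adjusted p = 0.0421). Of 18 insulin-like growth factor genes, 1 rose and 1 fell. Their median was 0.14. IGFBP2, a binding protein, was at 60.6, 21 and 16 CPM in autografts and 5.99, 3.001, 5.34 and 8.43 CPM in aortic sinuses (log2 fold change 2.52 ± 0.55, adjusted p = 0.0425), with replicate 1 the highest autograft, and IGFALS, the acid-labile subunit, at 3.26 to 4.37 CPM and 5.62 to 10.7 CPM (log2 fold change -1.14 ± 0.25, adjusted p = 0.0469).

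Receptor tyrosine kinase ligands and receptors had 1 rise and 2 falls among 32 tested members of the FGF, PDGF and EGF list, with a median of 0.33. HGF, hepatocyte growth factor, was at 40.3, 25.6 and 30.0 CPM in autografts and 8.73, 15.7, 5.05 and 8.16 CPM in aortic sinuses (log2 fold change 1.76 ± 0.37, adjusted p = 0.0376). The receptors NTRK3 and ERBB2 were at 15.5 to 26.2 CPM and 65.3 to 82.9 CPM in the autografts and 40.4 to 66.1 CPM and 103 to 204 CPM in the aortic sinuses (log2 fold change -1.42 ± 0.26, adjusted p = 0.0295 for NTRK3 and log2 fold change -1.28 ± 0.23, adjusted p = 0.0284 for ERBB2). Aortic replicate 2 was the lowest of its group for ERBB2 and still above each autograft. Mechanosensitive targets had 2 falls among 26, with a median of -0.23. PTRF, the cavin-1 of caveolae, was at 225, 255 and 332 CPM in autografts and 387, 567, 599.8 and 439 CPM in aortic sinuses (log2 fold change -0.88 ± 0.20, adjusted p = 0.0472). PKD1, polycystin-1, was at 259, 334 and 264 CPM in autografts and 535, 415, 501 and 458 CPM in aortic sinuses (log2 fold change -0.74 ± 0.13, adjusted p = 0.0261). Among the 10 called genes of these signalling lists, calls ended for 8, 8 and 5 of 10 without autograft replicates 1, 2 and 3. For 9, 5, 9 and 9 they ended without aortic replicates 1 to 4, and for 0, 4, 6 and 4 without pulmonary replicates 1 to 4 (adjusted p at most 0.132).

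By edgeR 0 of 15 tested Notch genes were called, with 1 higher and 1 lower at an unadjusted p under 0.05, and DESeq2 and limma-voom called 0. NOTCH3, the smooth muscle Notch receptor, was at 99.95, 114 and 96.5 CPM in autografts and 152, 174, 167 and 174 CPM in aortic sinuses (log2 fold change -0.69 ± 0.23, adjusted p = 0.113). HEYL, a Notch effector, was at 94.5, 97.4 and 139 CPM in autografts and 85.1, 65.5, 54.5 and 102 CPM in aortic sinuses, with overlap (log2 fold change 0.52 ± 0.23, adjusted p = 0.196). Of 43 tested axon guidance and cell adhesion genes edgeR also called 0, limma-voom called 0 and DESeq2 called 2 higher and 4 lower. At an unadjusted p under 0.05, 5 were higher and 5 lower, close to the shares over all tested genes. LSAMP, a neural adhesion protein gene, was at 0.64 to 1.46 CPM and 2.23 to 14.1 CPM (log2 fold change -2.82 ± 0.78, adjusted p = 0.0803). The guidance factor SLIT3 was at 38.7 to 81.5 CPM and 84.2 to 113 CPM (log2 fold change -0.86 ± 0.27, adjusted p = 0.106).

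Transcription factors of the outflow tract and of position had 2 falls among 45 tested, with a median of 0.02. HOXA3, a homeobox factor of the third pharyngeal arch, was at 25.6, 20.6 and 19.99 CPM in autografts and 44.8, 37.9, 66.2 and 54.6 CPM in aortic sinuses (log2 fold change -1.20 ± 0.26, adjusted p = 0.0387), and the pulmonary sinuses were at 45.5 ± 15.4 CPM. FOXC2, a forkhead factor of outflow tract and lymphatic development, was at 39.4, 32.1 and 42.6 CPM in autografts and 70.1, 74.2, 77.8 and 77.3 CPM in aortic sinuses (log2 fold change -0.97 ± 0.17, adjusted p = 0.0275), with the pulmonary sinuses at 64.2 ± 13.7 CPM. For both genes the means of the native tissues lay above every autograft. Cilia and tubulin genes had 3 falls among 36, RFX2, TPPP and CCDC33, with a median of -0.05. Together with MGP, PHEX and SLC20A2, these make 8 called genes, and calls ended for 4, 5 and 3 of 8 without autograft replicates 1, 2 and 3. For 5, 5, 5 and 4 they ended without aortic replicates 1 to 4, and for 0, 0, 2 and 1 without pulmonary replicates 1 to 4 (adjusted p at most 0.124).

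**Figure D4:**
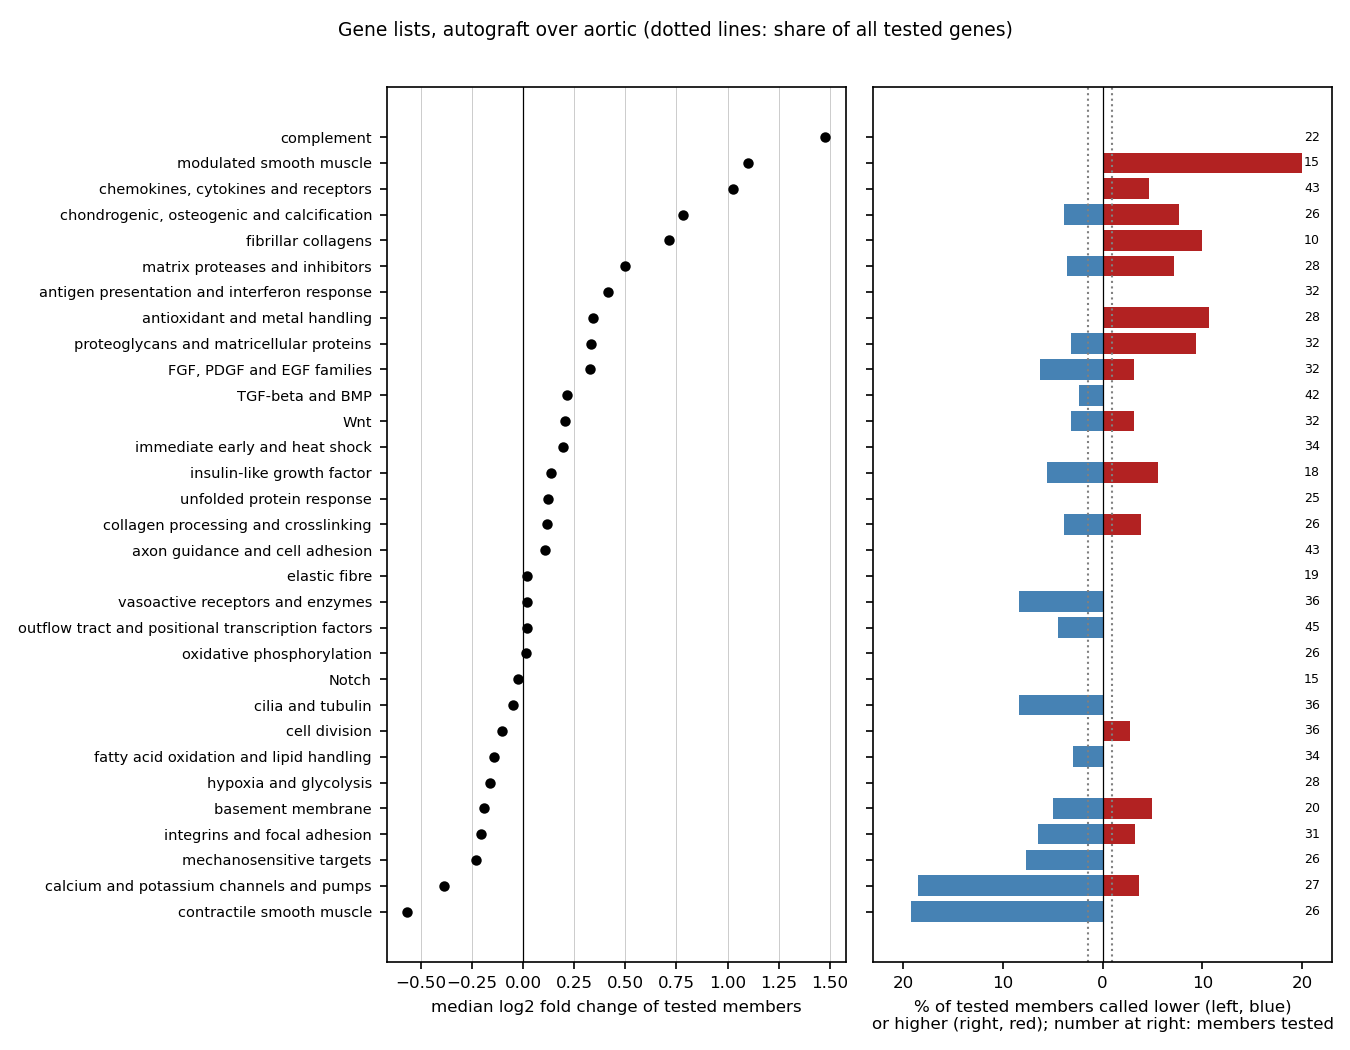
For 31 gene lists, the median log2 fold change of the tested members, autograft over aortic (left), and the percentage of tested members called lower (blue) or higher (red) in the autograft (right), with the number tested at the edge. Dotted lines mark the shares over all tested genes, 1.43% lower and 0.948% higher, and the contractile and channel lists lie lowest with the most calls of a fall.

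The summed level of T and natural killer cell markers was higher in each autograft than in any aortic library. Of 32 listed markers 18 passed the filter on low counts, and 9 of these rose, against the background of 0.948%. Their median log2 fold change was 2.44. The summed level of the tested markers was 79.7, 84.2 and 81.2 CPM in the autografts and 22.1, 31.2, 23.4 and 20.7 CPM in the aortic sinuses, so the autografts were close to each other and apart from the native libraries. Of the 18 tested markers 16 had a log2 fold change above 0 and 2 below. The 18 include markers that could pass the filter through the autografts alone, since 6 of them had a mean under 10 counts in the aortic libraries. Over all 26 listed markers in the table, tested or not, the sum was 83.9, 88.0 and 84.8 CPM in the autografts and 22.4, 31.5, 23.6 and 21.5 CPM in the aortic sinuses. IL2RB, the interleukin-2 receptor beta chain, was at 14, 11.1 and 6.76 CPM in autografts and 0.507, 1.4, 0.918 and 1.02 CPM in aortic sinuses (log2 fold change 3.45 ± 0.41, adjusted p = 0.00516). CTSW, cathepsin W of cytotoxic cells, was at 11.2, 11.5 and 8.06 CPM in autografts and 0.964, 2.05, 1.09 and 1.5 CPM in aortic sinuses (log2 fold change 2.86 ± 0.37, adjusted p = 0.00901). NKG7, a cytotoxic granule protein, was at 5.29, 6.11 and 5.28 CPM in autografts and 0.558, 0.800, 0.517 and 1.83 CPM in aortic sinuses (log2 fold change 2.58 ± 0.46, adjusted p = 0.0278). For all 3 genes the lowest autograft was above the highest native aortic library. Of the T cell genes, IL2RG, the common gamma chain, was at 6.81 to 10.4 CPM and 1.26 to 2.8 CPM (log2 fold change 2.19 ± 0.38, adjusted p = 0.0261). LCK, the kinase of the T cell receptor, was at 3.04 to 3.61 CPM and 0.344 to 0.700 CPM (log2 fold change 2.75 ± 0.53, adjusted p = 0.0338). The 2 markers below 0 were not called and their groups overlapped. GZMM, a granzyme of cytotoxic cells, was at 4.39, 3.49 and 6.76 CPM in autografts and 6.8, 5.95, 5.51 and 3.87 CPM in aortic sinuses (log2 fold change -0.18 ± 0.29, adjusted p = 0.744). CD8B, a chain of the CD8 coreceptor, was at 1.35, 3.38 and 6.13 CPM in autografts and 3.86, 6.45, 6.71 and 1.07 CPM in aortic sinuses (log2 fold change -0.32 ± 0.67, adjusted p = 0.808).

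The other called lymphocyte markers lie outside the rule for named genes and were added after their values were seen. CD3E, which signals for the T cell receptor, was at 7.26 to 8.23 CPM in the autografts and 1.29 to 2.5 CPM in the aortic sinuses (log2 fold change 2.15 ± 0.43, adjusted p = 0.0347). CD247, the zeta chain of that receptor, was at 3.29 to 4.05 CPM and 1.18 to 1.7 CPM (log2 fold change 1.36 ± 0.27, adjusted p = 0.0338). The adhesion receptor CD96 was at 1.63 to 2.02 CPM and 0.115 to 0.400 CPM (log2 fold change 3.1 ± 0.61, adjusted p = 0.0338). PRF1, perforin, was at 1.98 to 3.01 CPM and 0.23 to 0.483 CPM (log2 fold change 2.76 ± 0.61, adjusted p = 0.0439). None of the 9 overlapped between the groups, and the highest value of any of them was that of IL2RB in autograft replicate 1. The 9 calls ended for 5, 7 and 5 of 9 without autograft replicates 1, 2 and 3. For 7, 5, 7 and 6 they ended without aortic replicates 1 to 4, and for 0, 0, 1 and 1 without pulmonary replicates 1 to 4 (adjusted p at most 0.129), while those of IL2RB and CTSW held whichever autograft or aortic library was left out.

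Of the other immune lists, few members were called. Only 4 of 16 B and plasma cell markers passed the filter, and 1 rose: BANK1, a B cell scaffold protein gene, at 7.65, 6.11 and 2.44 CPM in autografts and 1.42, 1.85, 1.03 and 1.77 CPM in aortic sinuses (log2 fold change 1.82 ± 0.39, adjusted p = 0.0387). JCHAIN, the joining chain of secreted antibodies, was at 7.37, 54.3 and 12.6 CPM in autografts and 5.43, 5.65, 7.46 and 6.87 CPM in aortic sinuses, highest in autograft replicate 2, while autograft replicate 1 lay within the aortic range (log2 fold change 1.96 ± 0.54, adjusted p = 0.0778). Chemokines, cytokines and receptors had 2 rises among 43 tested and a median of 1.03, and 20 members were higher and 0 lower at an unadjusted p under 0.05. Of the 43, 6 had a mean under 10 counts in the aortic libraries, CCL5 among them, and could pass the filter through the autografts alone. CCL5, a chemokine of T cells, was at 3.49, 3.73 and 2.33 CPM in autografts and 0.304, 0.200, 0.344 and 0.913 CPM in aortic sinuses (log2 fold change 2.84 ± 0.60, adjusted p = 0.0376). IL6ST, the gp130 chain of interleukin-6 receptors, was at 308, 427 and 426 CPM in autografts and 175, 200.2, 187 and 224 CPM in aortic sinuses (log2 fold change 0.98 ± 0.17, adjusted p = 0.0275). CXCL12, the most abundant chemokine, was at 578, 599 and 396 CPM in autografts and 167, 261, 146 and 226 CPM in aortic sinuses and did not pass the test (log2 fold change 1.39 ± 0.35, adjusted p = 0.0636). The calls of BANK1, CCL5 and IL6ST ended for 2, 3 and 2 of 3 without autograft replicates 1, 2 and 3. For 3, 3, 3 and 2 they ended without aortic replicates 1 to 4, and for 0, 0, 2 and 2 without pulmonary replicates 1 to 4 (adjusted p at most 0.118).

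The summed level of macrophage markers was higher in 2 of the 3 autografts than in any aortic library. By edgeR 0 of 24 tested were called, although 24 of 24 had a log2 fold change above 0 and 13 were higher at an unadjusted p under 0.05. DESeq2 called 6 higher and limma-voom 0. A mean under 10 counts in the aortic libraries was found for 3 of the 24. The sum was 1653, 1242 and 293 CPM in the autografts and 455, 469.8, 188 and 609.6 CPM in the aortic sinuses, so autograft replicate 3 lay within the native range. FCER1G, a signalling chain of Fc receptors, was at 38.8, 38.7 and 15.4 CPM in autografts and 14.3, 16, 7.86 and 16.5 CPM in aortic sinuses (log2 fold change 1.18 ± 0.36, adjusted p = 0.095). LYZ, lysozyme, was at 3.37, 4.19 and 4.37 CPM in autografts and 0.66, 1.75, 0.517 and 0.967 CPM in aortic sinuses (log2 fold change 2.02 ± 0.59, adjusted p = 0.0862).

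Complement genes had the highest median of the functional lists, 1.48, with 21 of 22 above 0 and 9 higher at an unadjusted p under 0.05, but edgeR and limma-voom called 0 and DESeq2 3. CFI, complement factor I, was at 72.6, 22.1 and 7.38 CPM in autografts and 4.31, 6.9, 4.59 and 3.65 CPM in aortic sinuses (log2 fold change 2.80 ± 0.70, adjusted p = 0.061). Its autograft values ranged widely, with replicate 1 the highest. CFD, the protease factor D, was at 11.9 to 39.2 CPM and 4.94 to 12.3 CPM (log2 fold change 1.70 ± 0.46, adjusted p = 0.0778). Antigen presentation and interferon response genes also had 0 calls by edgeR and limma-voom among 32, with 5 higher at an unadjusted p under 0.05, 4 called by DESeq2 and a median of 0.41. B2M, the light chain of class I molecules, was at 1159, 1435 and 967 CPM in autografts and 538, 702, 612 and 945 CPM in aortic sinuses (log2 fold change 0.76 ± 0.23, adjusted p = 0.0953). The RNA sensor IFIH1 was at 11.5 to 17.1 CPM and 5.11 to 9.75 CPM (log2 fold change 0.82 ± 0.25, adjusted p = 0.0967).

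Among other cell types in the wall, marker levels differed widely between the autografts for endothelium, and less for fibroblasts. Fibroblast and adventitia markers had 2 rises among 25 tested, DCN and SFRP2, and a median of 0.79. Their summed level was 23480.0, 19721 and 21388 CPM in the autografts and 13380.0, 11984, 10022 and 12662 CPM in the aortic sinuses, without overlap. This list shares genes with the matrix lists, and its part in their rises was not tested. Endothelial markers were above 0 in log2 fold change for 25 of 25, with 5 higher at an unadjusted p under 0.05, but edgeR and limma-voom called 0 and DESeq2 1. Their mean log2 CPM was 3.52, 6.38 and 5.48 in the autografts and 4.09 to 5.26 in the aortic sinuses, so autograft replicate 1 was below all native libraries and replicate 2 above them. NOS3, the endothelial nitric oxide synthase, was at 6.86, 99.5 and 36.4 CPM in autografts and 9.34, 18.8, 5.91 and 10.3 CPM in aortic sinuses (log2 fold change 2.10 ± 0.68, adjusted p = 0.111). PROCR, the protein C receptor, was at 35.2, 68.1 and 39.4 CPM in autografts and 18.1, 22.4, 15.7 and 20.1 CPM in aortic sinuses (log2 fold change 1.32 ± 0.32, adjusted p = 0.0566).

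Lymphatic vessel markers had 1 call among 7, the rise of PDPN, podoplanin, a glycoprotein of lymphatic endothelium that fibroblasts also make. It was at 56.4, 29 and 43.8 CPM in autografts and 10.6, 9.3, 13 and 11.2 CPM in aortic sinuses (log2 fold change 1.97 ± 0.30, adjusted p = 0.017). The list's median was -1.19, opposite in sign, and the lymphatic transcription factor PROX1 was at 0.562, 2.97 and 3.29 CPM in autografts and 3.45, 5.95, 7.12 and 4.24 CPM in aortic sinuses (log2 fold change -1.19 ± 0.53, adjusted p = 0.211). CCL21, a chemokine of lymphatic endothelium, was at 0.900, 65.2 and 21.3 CPM in autografts and 48.5, 158, 141 and 84.1 CPM in aortic sinuses (log2 fold change -1.89 ± 1.43, adjusted p = 0.458), lowest in autograft replicate 1. Schwann cell and nerve markers had 1 fall among 16, PRX, periaxin of myelinating Schwann cells, at 11.6, 14.1 and 13.1 CPM in autografts and 25.4, 24.2, 21.8 and 21.5 CPM in aortic sinuses (log2 fold change -0.84 ± 0.15, adjusted p = 0.0275). Their median was -0.97, and 7 were lower at an unadjusted p under 0.05. ERBB3, the neuregulin receptor of Schwann cells, was at 20.6 to 28.7 CPM and 35.4 to 65.9 CPM (log2 fold change -0.98 ± 0.28, adjusted p = 0.0834). The 4 calls of DCN, SFRP2, PDPN and PRX ended for 3, 3 and 3 of 4 without autograft replicates 1, 2 and 3. For 3, 3, 4 and 3 they ended without aortic replicates 1 to 4, and for 0, 1, 2 and 1 without pulmonary replicates 1 to 4 (adjusted p at most 0.133).

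Pericyte, adipocyte and cardiomyocyte markers had no member called by edgeR. Among 9 pericyte markers 0 were called, with 3 lower at an unadjusted p under 0.05, 2 called lower by DESeq2 and 1 by limma-voom. MCAM, an adhesion molecule of mural cells, was at 354, 546 and 626 CPM in autografts and 1144, 1072, 1151 and 839 CPM in aortic sinuses (log2 fold change -1.05 ± 0.25, adjusted p = 0.052). CSPG4, the NG2 proteoglycan, was at 92 to 215 CPM and 212 to 318 CPM (log2 fold change -0.94 ± 0.25, adjusted p = 0.0701). The log2 fold changes of both were below 0. Over the 9 pericyte markers, 5 log2 fold changes were above 0 and 4 below, with a median of 0.03. Among 15 adipocyte markers 0 were called, with 2 higher and 1 lower at an unadjusted p under 0.05, 1 called in each direction by DESeq2 and 0 by limma-voom. LPL, lipoprotein lipase, was at 12.5, 46.6 and 72.9 CPM in autografts and 15.8, 12.3, 4.42 and 10.5 CPM in aortic sinuses (log2 fold change 2.03 ± 0.66, adjusted p = 0.113). PLIN4, a lipid droplet protein gene, was at 11.1 to 27.6 CPM and 25.5 to 63.5 CPM (log2 fold change -1.26 ± 0.36, adjusted p = 0.0827). Of the 15 adipocyte markers, 11 had a log2 fold change above 0 and 4 below, with a median of 0.67. Among 19 cardiomyocyte markers 0 were called, with 4 lower at an unadjusted p under 0.05, 3 called lower by DESeq2 and 0 by limma-voom. MYH7, a cardiac and slow muscle myosin, was at 9.22, 7.8 and 9.94 CPM in autografts and 51, 80.4, 27.4 and 26.6 CPM in aortic sinuses (log2 fold change -2.37 ± 0.56, adjusted p = 0.0534). LDB3, a Z-disc protein gene, was at 37.6 to 70.8 CPM and 92.2 to 141 CPM (log2 fold change -1.15 ± 0.33, adjusted p = 0.0845). Of the 19 cardiomyocyte markers, 5 had a log2 fold change above 0 and 14 below, with a median of -0.64.

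Of the 3 remaining marker lists edgeR and limma-voom called no member. Among 6 tested neutrophil and mast cell markers 0 were called, with 1 higher at an unadjusted p under 0.05 and 1 called by DESeq2, and the median was 0.22. Among 4 mesothelial and epithelial markers 0 were called, with 1 higher at that p and 0 called by DESeq2, and the median was 1.72. Among 3 erythroid and platelet markers 0 were called, with 2 higher at that p and 1 called by DESeq2, and the median was 2.53. Over all 10 mesothelial and epithelial markers in the table the summed level was 121.6 CPM in autograft replicate 1, against 6.11 and 4.26 CPM in the other autografts and 2.31 to 41.4 CPM in the aortic sinuses.

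**Figure D5:**
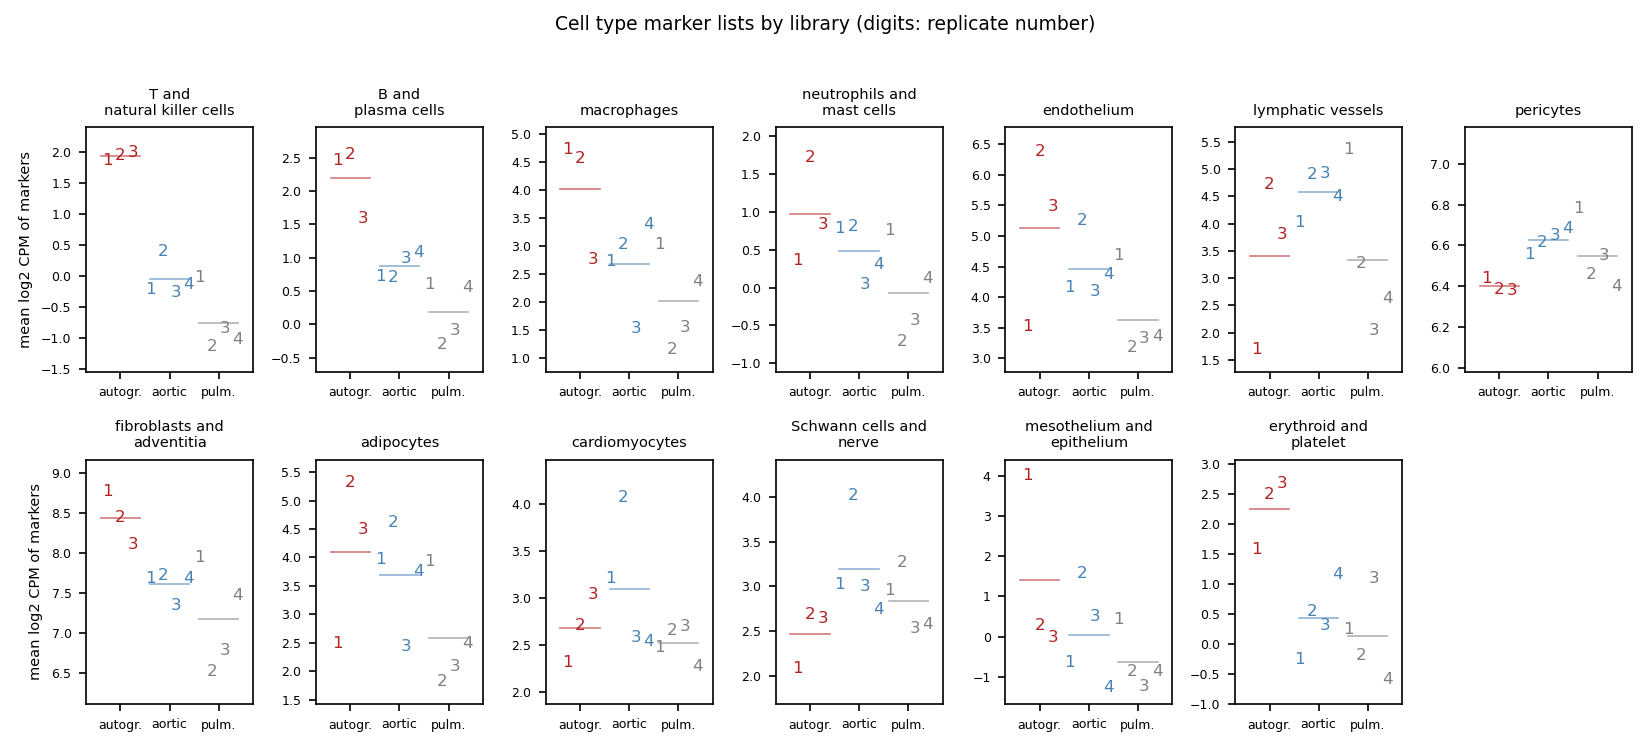
Mean log2 CPM of the tested markers of 13 cell types in each library, with the replicate number as the symbol and the group mean as a line, autografts in red, aortic sinuses in blue and pulmonary sinuses in grey. The 3 autografts lie above the aortic libraries for T and natural killer cells, fibroblasts, B and plasma cells, and erythroid and platelet markers. The last 2 lists hold only 4 and 3 tested markers. Autografts lie below the aortic libraries for pericytes and for Schwann cells and nerve. Autograft replicate 1 lies far from the other autografts for endothelium, lymphatic vessels, adipocytes and mesothelium and epithelium.

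Antioxidant and metal handling genes had 3 rises among 28 tested, with 13 higher and 0 lower at an unadjusted p under 0.05, and a median of 0.34. FTL, the ferritin light chain that stores iron, was at 105, 142 and 108 CPM in autografts and 65.2, 49.6, 56.5 and 64.9 CPM in aortic sinuses (log2 fold change 1.0 ± 0.16, adjusted p = 0.0241). HMOX1, haem oxygenase 1, was at 18, 30.6 and 21.8 CPM in autografts and 11, 11.1, 6.31 and 14.1 CPM in aortic sinuses (log2 fold change 1.14 ± 0.26, adjusted p = 0.0478). GSTM3, a glutathione transferase, was at 161, 180.4 and 268 CPM in autografts and 115, 94.2, 85.6 and 138 CPM in aortic sinuses (log2 fold change 0.91 ± 0.21, adjusted p = 0.049). Each autograft was above each aortic library for all 3. Of 36 cell division genes 1 rose, CCND1, cyclin D1 of the G1 phase, at 207, 178 and 158 CPM in autografts and 108, 74.8, 83.3 and 100.3 CPM in aortic sinuses (log2 fold change 0.98 ± 0.19, adjusted p = 0.0346). The list's median was -0.10, and the mitotic kinase AURKA was at 1.01, 0.757 and 0.738 CPM in autografts and 2.18, 2.25, 2.3 and 2.26 CPM in aortic sinuses and was not called (log2 fold change -1.42 ± 0.38, adjusted p = 0.0755). Of 34 fatty acid oxidation and lipid genes 1 fell, ACSBG2, an acyl-CoA synthetase, at 0.337, 1.63 and 1.82 CPM in autografts and 12, 7.9, 7.46 and 5.32 CPM in aortic sinuses (log2 fold change -2.69 ± 0.57, adjusted p = 0.0383), and the median was -0.14. ABCA1, the cholesterol exporter, was at 25.2 to 52.7 CPM and 15.2 to 26.2 CPM (log2 fold change 1.0 ± 0.26, adjusted p = 0.0652). The 5 calls ended for 3, 5 and 3 of 5 without autograft replicates 1, 2 and 3. For 4, 4, 5 and 4 they ended without aortic replicates 1 to 4, and for 0, 2, 4 and 3 without pulmonary replicates 1 to 4 (adjusted p at most 0.135).

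The remaining stress and metabolic lists had no member called by edgeR or limma-voom. Of 28 hypoxia and glycolysis genes, 6 were higher and 5 lower at an unadjusted p under 0.05, and DESeq2 called 2 in each direction. HIF1A, the oxygen-regulated factor, was at 197, 312 and 279 CPM in autografts and 103, 148, 113 and 164 CPM in aortic sinuses (log2 fold change 0.99 ± 0.24, adjusted p = 0.0565). HK1, a hexokinase, was at 117 to 136 CPM and 156 to 172 CPM (log2 fold change -0.40 ± 0.10, adjusted p = 0.0677). Of 25 unfolded protein response genes, 2 were higher and 0 lower at that p, and DESeq2 called 1. DNAJB9, an endoplasmic reticulum chaperone, was at 47.7 to 56.3 CPM and 32 to 42.4 CPM (log2 fold change 0.51 ± 0.16, adjusted p = 0.105). CREB3L1, a stress sensor of collagen-making cells, was at 32.6 to 47.3 CPM and 24.2 to 32.4 CPM (log2 fold change 0.55 ± 0.23, adjusted p = 0.194). Of 26 oxidative phosphorylation genes 1 was higher at that p and DESeq2 called 0. The complex I subunits NDUFA1 and NDUFC2 had log2 fold changes of 0.27 ± 0.10 (adjusted p = 0.136) and 0.20 ± 0.10 (adjusted p = 0.244). Among 34 genes of the immediate early and heat shock list, 2 were higher and 3 lower at that p, and DESeq2 called 0. The immediate early genes KLF6 and IER3 had log2 fold changes of -0.67 ± 0.26 (adjusted p = 0.158) and -0.53 ± 0.19 (adjusted p = 0.147).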

How the data were processed

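Libraries were prepared with a TruSeq kit from RNA extracted with TRIzol, per the labels' protocols. Tools listed in the submitters' processing notes were featureCounts 1.5.3, STAR 2.5.2b, Bowtie2 2.3.3.1 and cutadapt. The sources used here do not give genome build, annotation or strand setting. The authors deposited raw gene counts and FPKM values for each run. Counts of both runs were summed per library, without the row that names no gene (at most 0.000522% of counts). The chi-square statistic per gene was 1.36 to 1.47 between runs of a library and 27.4 to 88.6 between libraries of a group. Genes were filtered with filterByExpr, scaled by the trimmed mean of M-values and tested with edgeR 4.0.16 (R 4.3.3), in 1 quasi-likelihood fit over the 11 libraries with no block. Alternatives used DESeq2 1.42.0, limma-voom (limma 3.58.1), other filters and scalings, each library left out, and the deposited FPKM values as log2(FPKM + 1). In those FPKM values 4505 entries of run 1, each a gene in a library, had a value above 0 with a raw count of 0. ACTA2 had the same value, 3715 FPKM, in every library, so no level was taken from the FPKM values. Gene types came from the RefSeq table of ARS-UI_Ramb_v3.0, where 18717 of 26200 symbols matched.

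The genes and lists were chosen with earlier results of these data known. Named were the 12 largest called rises and falls with at least 5 CPM in the higher group, the 8 most abundant called genes, and in each list up to 5 called members, the 2 with the smallest p where fewer than 2 were called, and the most abundant member; not all of the last are printed, and 2 called genes are not reported here.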

Additional observations from a re-analysis of the deposited data

Results flagged for a closer look

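Among 129 genes considered for the text, the 4 aortic libraries held 1 library apart from the other 3 for 4 genes, judged by the gap to the nearest library over the whole range; chance alone gives this in about 1 in 20 groups, so 4 is no more than chance gives. COL4A5 was at 7.38 log2 CPM in aortic replicate 2, against 7.90 to 8.0 in the others, and ERBB2 at 6.69 in the same library, against 7.53 to 7.68. Both genes fell in the autograft, and in this library they lay nearest to the autograft values. GP1BA, a platelet glycoprotein, was at -0.047 log2 CPM in aortic replicate 4, against -2.59 to -2.25, and PF4, a platelet chemokine, at -2.25 in aortic replicate 1, against -0.047 to 0.39. The levels of the last 2 genes rest on few counts.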

How the results depend on the processing

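For direction, 0 of the 356 called genes changed sign in the 27 alternatives, while the number called varied widely. As the groups did not overlap for 355 of these genes, leaving out libraries was hardly a test of direction. DESeq2 called 1462 genes (760 higher, 702 lower), among them all 356, and so moved the balance from 142 to 214. The fit with the replicate block called 681 (302 higher, 379 lower). Same-numbered aortic and pulmonary libraries share an animal (correlations of deviations -0.18, -0.135, 0.433 and 0.451), but same-numbered autograft and aortic libraries do not (0.025, 0.215 and 0.135), so this block also joins different sheep. With the animal as a random block in limma-voom, 361 were called (178 higher, 183 lower). Without the animal of aortic replicate 1, 110 were called (45 higher, 65 lower), and without both autograft replicate 1 and aortic replicate 1, an analysis added after the data were seen, 68 (31 higher, 37 lower). Of 83 called genes considered for the text, DESeq2 kept the call of 83, limma-voom of 75, the animal block of 73, and FPKM with a pseudocount of 1 of 54. The log2 fold change of 0 of the 83 moved by over 1.5 times in any alternative on counts. On FPKM with a pseudocount of 1 it was over 1.5 times smaller for 29 and larger for 1: over the FPKM alternatives EYA1 was at 0.23 to 1.05 (2.16 to 2.94 over those on counts), CYTIP at 0.46 to 1.54 (2.43 to 2.97), MGP at 0.80 in each (1.64 to 2.04) and DCN at 0.56 in each (1.25 to 1.51). The FPKM values gave ACTA2 the same level in every library, so they are a limited check for abundant genes. Run 1 alone gave 92 genes higher. The 7 libraries fitted without the pulmonary ones gave 257 called genes (127 higher, 130 lower), of which 191 were among the 356. Of the 83 called genes considered for the text, the fit without the pulmonary libraries kept the call of 57. Leaving out single libraries gave 25 (autograft replicate 2) to 576 (pulmonary replicate 1) called genes, 7 (without aortic replicate 3) to 269 (pulmonary replicate 1) higher and 15 (autograft replicate 2) to 307 (pulmonary replicate 1) lower. Of the uncalled markers below 0, GZMM had a log2 fold change of 0.0079 without both autograft replicate 1 and aortic replicate 1 and -0.49 to 0.022 without single libraries, and CD8B 0.0063 and -0.94 to 0.079. With 3 and 4 animals, genes that were not called may still differ, and genes at a few CPM rest on few reads in the native libraries.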

Other observations

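Antigen receptor genes were among the largest rises of all and were picked after their values were seen. RefSeq gives the type V segment or C region, used for immunoglobulin and T cell receptor genes, to 4 called genes that carry only LOC numbers in the table. LOC101108519, a V segment gene, was at 7.59, 972 and 65.1 CPM in autografts and 4.41, 2.7, 1.03 and 1.83 CPM in aortic sinuses (log2 fold change 7.11 ± 1.41, adjusted p = 0.0347). LOC101108522, a C region gene, was at 4.11, 275 and 29.6 CPM in autografts and 1.27, 1, 0.172 and 0.107 CPM in aortic sinuses (log2 fold change 7.29 ± 1.32, adjusted p = 0.0281), and LOC101108817, another, at 0.675, 517 and 15.7 CPM in autografts and 0.304, 0.35, 0.172 and 0.537 CPM in aortic sinuses (log2 fold change 8.99 ± 1.75, adjusted p = 0.0338). Autograft replicate 2 held most of the signal of all 3, as it did for JCHAIN. For LOC101107504, a further C region gene, the autografts were alike, at 2.02, 2.33 and 2.27 CPM in autografts and 0.406, 0.35, 0.287 and 0.483 CPM in aortic sinuses (log2 fold change 2.51 ± 0.48, adjusted p = 0.0314). The call of LOC101107504 ended without each of the 7 autograft and aortic libraries in turn, and those of the other 3 genes ended without autograft replicate 2 and without each aortic replicate. Such genes have near-identical copies, and the sources used here do not say how reads were split between them.

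Markers of some other cell types had most of their counts in single autografts. Autograft replicate 1 had 233 counts of LRRN4, a mesothelial gene, 74 of KRT7 and 66 of CDH1, both epithelial, against at most 4 in any other autograft or aortic library. Its marker means were low for lymphatic vessels (1.68, 4.71 and 3.8 log2 CPM in the 3 autografts) and adipocytes (2.48, 5.32 and 4.49). Autograft replicate 3 had 672 counts of ALAS2 and 63 of HBM, genes of red cell precursors, against at most 3 elsewhere, and 220 of CSF3R and 160 of CXCR2, receptors of neutrophils, against at most 8 elsewhere. The part of these cells in the differences between the groups was not tested.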
